A study of Mus musculus with 2 samples.

Results

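Type 1 conventional dendritic cells (cDC1) were taken from the leukocytes of B16-F10 tumours, a transplantable melanoma of C57BL/6 mice. A cell barcode was a member when it held 500 UMIs or more (unique molecular identifiers, 1 per captured RNA molecule) from 200 genes or more, with no more than 10% of UMIs mitochondrial, and 2 or more UMIs of Xcr1 and Clec9a summed. It also had fewer than 2 UMIs of Fscn1, which marks mature DCs. The sum of Cd3e, Cd3d and Cd3g had to be under 3, that of C1qa, C1qb and C1qc under 10 and that of Pmel, Mlana and Dct under 10, which keeps T cells, macrophages and melanoma RNA out. The rule found 178 cDC1 among 13854 barcodes that passed the quality limits. There were 108 of 7500 in the library of mice treated with an OX40 agonist and 70 of 6354 in the library of control mice.

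Both groups were wild-type female C57BL/6 mice that carried a tumour under the skin of the right flank, implanted at 10 weeks of age. Digested tumours were passed over a density gradient, and CD45-positive cells negative for the viability dye DAPI were sorted into a 10x Genomics droplet assay. The design gave 1 library of mice given the OX40 agonist and 1 library of control mice. The number of mice behind a library, the form, dose and timing of the agonist and what control mice received are not given in the sources used here.

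cDC1 are a rare dendritic cell lineage that grows under the receptor Flt3 and needs the transcription factors Irf8, Batf3 and Id2. They carry Clec9a, a receptor for the actin exposed by dead cells, and Xcr1, the receptor for a chemokine released by CD8 T cells and NK cells. They are known for cross-presentation, the loading of engulfed antigen on MHC class I, and in tumours they draw and restimulate CD8 T cells through Cxcl9, Cxcl10 and Il12b. OX40 (Tnfrsf4) costimulates T cells once they are activated, and its ligand OX40L (Tnfsf4) is made by antigen-presenting cells. Interferon-gamma from T and NK cells acts through the receptor chain Ifngr1 and turns on Cxcl9, Cxcl10 and families of GTPases.

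The libraries held 118059108 and 114026695 UMIs, the OX40 agonist library first, in 8569 and 7187 barcodes. The 108 OX40 agonist cDC1 had a median of 13072 UMIs (2935 to 33101) and 2924 genes, against 20836 UMIs (7211 to 44629) and 3693 genes in the 70 control cDC1. OX40 agonist cDC1 were thus the shallower cells, and 1601902 against 1523360 UMIs lay behind the summed values. With 1 library in each group no spread between mice could be measured, so the differences between libraries have no replicate check. Every interval below is at 95% and covers counting error only. For a gene whose UMIs sit in a few cells the interval is narrower than the true uncertainty. Levels are a gene's summed UMIs per 1000000 summed UMIs of the cells (CPM). Of 18 barcodes present in both libraries, none was a cDC1 in both.

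cDC1 made up 1.44% (1.18% to 1.74%, Clopper-Pearson) of kept OX40 agonist barcodes and 1.10% (0.860% to 1.39%) of kept control barcodes. The ratio of 1.31 had an exact interval of 0.959 to 1.79, which holds 1. The entry sum of Xcr1 and Clec9a had a median of 6 UMIs in OX40 agonist cDC1 and 9.5 in control cDC1. Just inside the limit, 24 OX40 agonist and 14 control cDC1 held exactly 2 such UMIs, and just outside it 48 and 40 kept barcodes held exactly 1. The limits on RNA of other cells weighed more on the control library. They removed 36 OX40 agonist and 56 control barcodes that had passed entry and Fscn1, with C1q above its limit in 29 and 55 of them. Without the C1q limit the counts were 129 and 113 and the ratio of shares was 0.967 (0.745 to 1.26). With no CD3 UMI allowed and the C1q and melanoma sums both held under 3, they were 92 and 40 and the ratio was 1.95 (1.33 to 2.90). The limits were tightened together in this last setting, and the interval without the C1q limit also holds 1.

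cDC2, the second conventional lineage, and mature DCs were cut from the same libraries for comparison. With the quality and other-cell limits unchanged, the cDC2 gate asked for at least 2 UMIs of Flt3 and Cd209a with none of Xcr1 and Clec9a, fewer than 2 of Fscn1 and fewer than 2 of Siglech. It held 152 OX40 agonist and 110 control barcodes. The mature DC gate asked for at least 2 UMIs of Fscn1 and 1 of Ccr7, and held 424 and 230. Mature DCs were 5.65% of OX40 agonist and 3.62% of control barcodes, a ratio of 1.56 (1.33 to 1.84). cDC1 were 15.8% (13.1% to 18.7%) of the 684 OX40 agonist barcodes in the 3 gates and 17.1% (13.6% to 21.1%) of the 410 control ones.

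The gate fixed Xcr1 and Clec9a, and since the cells were chosen by their RNA, all values that set them beside other cells are descriptions. Xcr1 stood at 335 CPM in OX40 agonist and 364 CPM in control cDC1, and Clec9a at 205 and 216 CPM. T cells of the 2 libraries had 1.47 and 1.32 CPM of Xcr1. Flt3, the third marker, was detected in 77.8% of OX40 agonist and 68.6% of control cDC1, against 2.22% and 1.48% of T cells, which should lack it. Median depth in those T cells was 9898 and 13275 UMIs. With each cell thinned to 2000 UMIs the Flt3 shares were 26.9% and 15.7% in cDC1 and 0.380% and 0.202% in T cells.

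Lineage transcription factors were high. Irf8 stood at 1263 and 1612 CPM in cDC1 of the OX40 agonist and control libraries, beside 124 and 248 CPM in cDC2 and 849 and 1149 CPM in mature DCs. Batf3, its partner, had 143 and 164 CPM in cDC1, 54.0 and 56.6 in cDC2 and 296 and 279 in mature DCs. Id2, which blocks the plasmacytoid fate, had 815 and 936 CPM in cDC1, 185 and 168 in cDC2 and 1927 and 1994 in mature DCs. Irf8 was thus highest in cDC1, while Batf3 and Id2 were higher still in mature DCs. The pan-DC factor Zbtb46 was low at 21.2 and 28.2 CPM.

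Large contrasts lay in adhesion and antigen-handling genes. Itgae, which encodes CD103, had 197 and 198 CPM in cDC1 of the OX40 agonist and control libraries, against 6.26 and 5.22 in cDC2 and 3.08 and 0.437 in mature DCs. Cadm1, an adhesion molecule, had 154 and 207 CPM, against 3.13 and 4.35 in cDC2. Tlr3, the sensor of double-stranded RNA, had 63.7 and 70.9 CPM, against 1.57 and 0 in cDC2 and 0 and 0.874 in mature DCs. Of the 3 sets, cDC1 alone held more than a trace of Tlr3. Wdfy4, which cross-presentation of cell-associated antigen requires, had 383 and 388 CPM, against 56.4 and 58.3 in cDC2 and 4.75 and 6.12 in mature DCs. The lysosomal enzymes Naaa and Ppt1 followed the same pattern, with Naaa at 1008 and 1226 CPM in cDC1 and 13.1 and 24.9 in mature DCs.

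Of 24 identity genes, 18 were at least 2-fold higher in cDC1 than in cDC2 in both libraries, and none was lower, beside 4.35% higher and 6.89% lower of 3078 genes compared. Against mature DCs 17 were higher and 2 lower, beside 12.6% higher and 13.9% lower of 3212 genes, and against all other kept barcodes 20 were higher and none lower, beside 6.57% and 12.2% of 3407. The cells were gated on Xcr1 and Clec9a, so nothing is read from these shares. Ranked by the smaller of each gene's 2 ratios, the 12 genes that led cDC1 over cDC2 began with Itgae, Cadm1, Ppt1, Rab7b and Agpat3. Over mature DCs they began with Naaa, Wdfy4, Ckb, Ppt1 and Plbd1, and over all other cells with Plet1, Cd24a, Wdfy4, Cst3 and Sept3. Cst3, the protease inhibitor cystatin C, was the most abundant of them, at 36701 and 37440.3 CPM. Genes of the other DC sets were low. Cd209a, a lectin of cDC2, had 11.9 and 12.5 CPM in cDC1 and 1374 and 1193 in cDC2, whose gate used it. Ccr7, the receptor that guides DCs to lymph nodes, had 98.6 and 84.0 CPM in cDC1 and 3148 and 3520.2 in mature DCs, and a single cell gave 29.7% and 30.5% of its UMIs in the OX40 agonist and control cDC1.

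**Figure D1:**
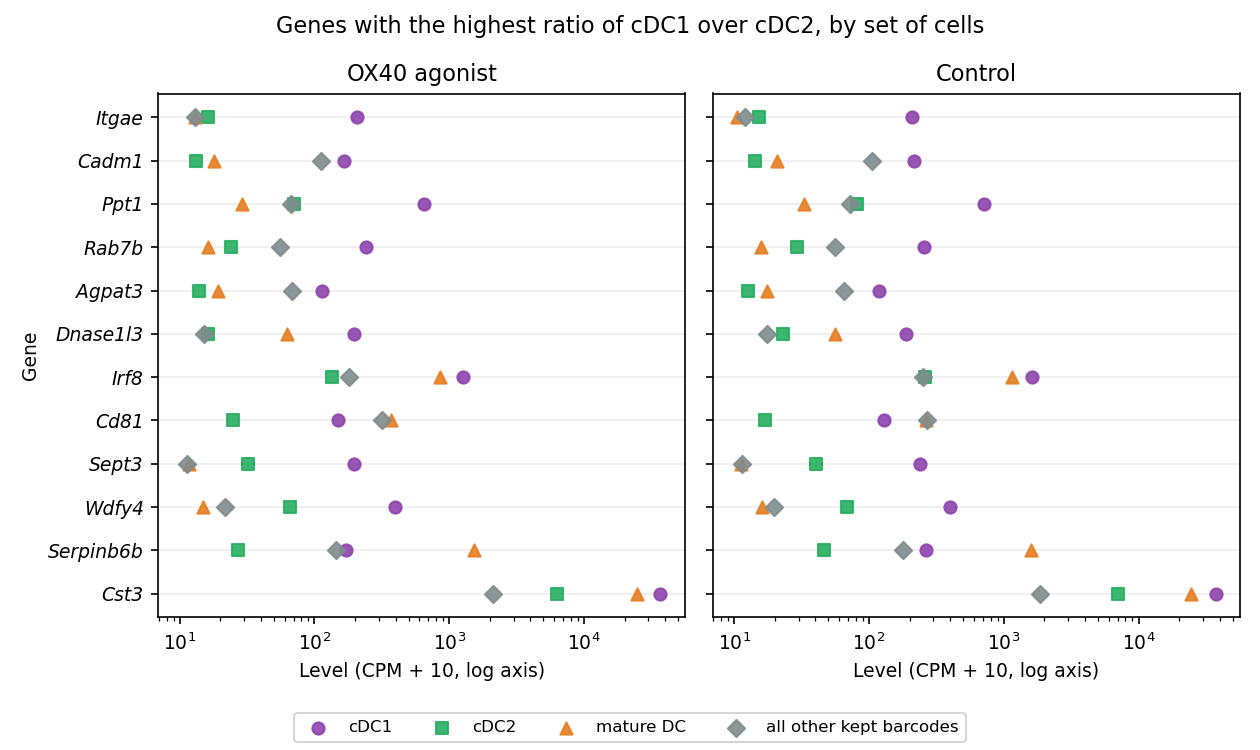
Levels of the 12 genes with the highest ratio of cDC1 over cDC2, in CPM plus 10 on a log axis, for cDC1, cDC2, mature DCs and all other kept barcodes of the OX40 agonist library (left) and the control library (right). The genes were chosen by this ratio in both libraries, so points of cDC1 lie right of those of cDC2 in both panels by choice. Itgae stands at 197 and 198 CPM in cDC1 against 6.26 and 5.22 CPM in cDC2.

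Between the libraries the identity program was close to level. A gene was called different when the ratio was 2-fold or more after adding 10 CPM, the intervals were separate, and the higher library had 50 CPM, 30 UMIs and 10% of its cDC1 with a UMI. None of the 24 met these limits, beside 0.0380% of 2633 genes higher and 0.798% lower. The median log2 ratio, OX40 agonist over control, was -0.11, beside -0.07 over all 6872 genes at 10 CPM or more, and single genes ran between -0.40 and 0.50. Irf8 stood at 1263 CPM (1208 to 1319) in OX40 agonist cDC1, against 1612 CPM (1548 to 1677) in control cDC1, a ratio of 0.784 (0.738 to 0.831). Cadm1 was also lower, at 154 CPM in OX40 agonist cDC1 and 207 CPM in control cDC1, a ratio of 0.746 (0.629 to 0.884). Flt3 stood at 115 CPM (99.4 to 133) in OX40 agonist cDC1, against 82.1 CPM (68.3 to 97.8) in control cDC1. The ratio was 1.41 (1.12 to 1.78), the higher level being in OX40 agonist cDC1. In the 84 OX40 agonist and 48 control cDC1 with both Xcr1 and Clec9a, the Flt3 ratio was 1.17 (0.913 to 1.501). That interval includes equal levels. In the 20 OX40 agonist and 18 control cDC1 with Clec9a alone, Flt3 had 22 against 5 UMIs. Gcsam, a signalling adaptor, and Btla, a coinhibitory receptor, had ratios of 1.51 (1.11 to 2.06) and 1.30 (1.04 to 1.63). Itgae, Wdfy4 and Rab7b had ratios of 0.995, 0.986 and 0.936.

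Across all genes, 1 of 2633 tested was higher in OX40 agonist cDC1 (0.0380%) and 21 were lower (0.798%). The 21 were Lpl, Ptgs2, Cxcl10, Ccl17, Iigp1, Ccl6, Ly6a, Cxcl9, Cybb, Cxcl2, AA467197, Igtp, Asb2, Cd38, Capg, Ms4a4c, Gbp2, Ccrl2, Cd40, Top2a and Ifi47, and the higher one was the chemokine Ccl7. Ccl7 stood at 77.4 against 24.3 CPM, and a single cell gave 37.9% of the Ccl7 UMIs in OX40 agonist and 40.5% in control cDC1. Of the 6872 genes at 10 CPM or more, 60.0% were lower and 40.0% higher, the shares against which the counts of each list stand. The same limits found 2 genes higher (0.0743%) and 3 lower (0.112%) of 2690 in cDC2, and 3 each way (0.119%) of 2529 in mature DCs.

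**Figure D2:**
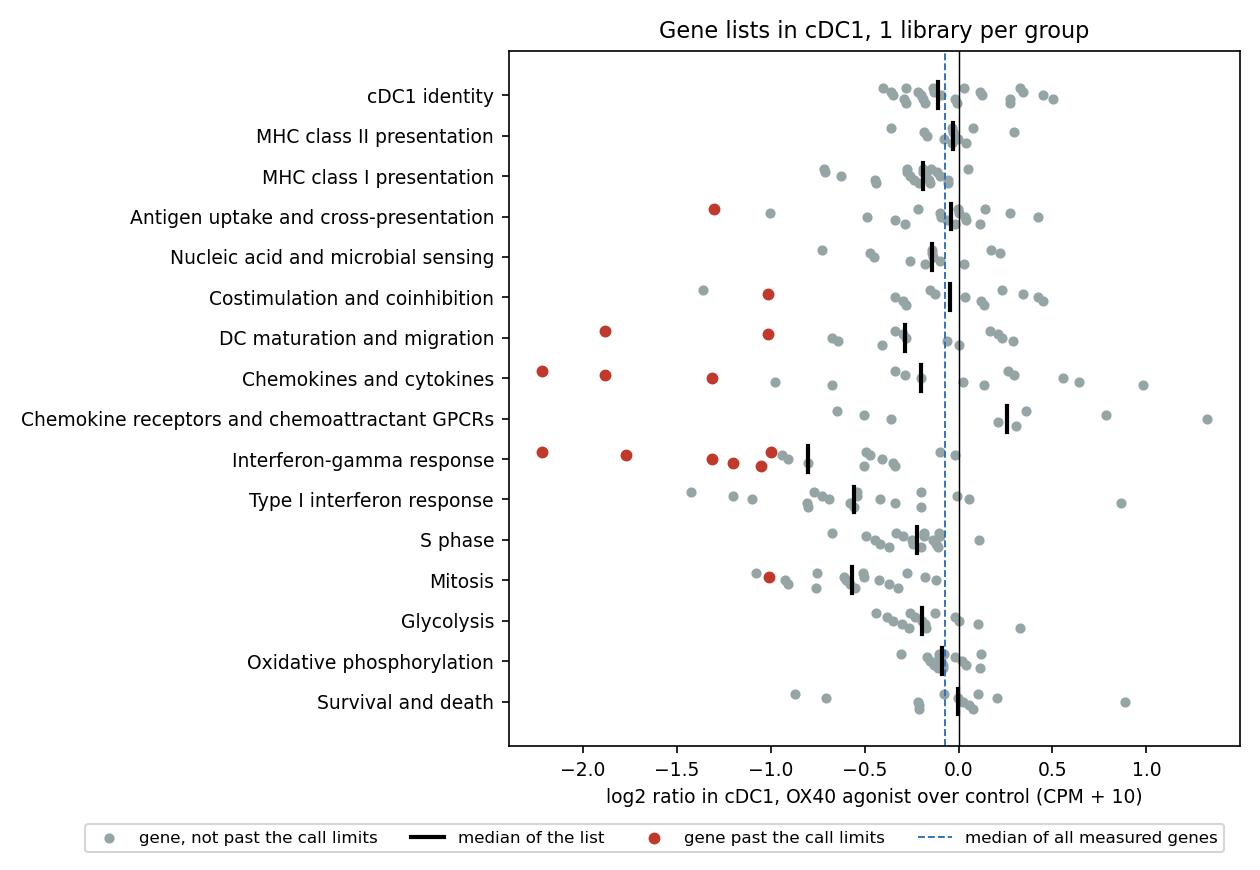
Log2 ratios of OX40 agonist over control cDC1 for the measured genes of each gene list, with the list median marked. The interferon-gamma list has the lowest median at -0.80, followed by the mitosis list at -0.57 and the type I interferon list at -0.56, while the MHC class II list sits at -0.03.

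The interferon-gamma list had the lowest median of the lists described. Of its 24 genes 17 reached 10 CPM in a library, and all 17 were lower in OX40 agonist cDC1, beside 60.0% of all genes, with a median log2 ratio of -0.80. With no minimum level all 24 were lower and the median was -0.47, beside -0.03 over all genes. Of them 6 passed the limits, beside 0.798% of genes tested, namely Cxcl10, Iigp1, Cxcl9, Igtp, Gbp2 and Ifi47. In the 84 OX40 agonist and 48 control cDC1 that held both Xcr1 and Clec9a, 1 gene of the list passed, Iigp1, and the ratio of Cxcl10 was 0.828 and that of Gbp2 0.926. Cxcl9, a chemokine that attracts T cells through Cxcr3, lies at chr5:92321347-92328079 (mm10). It stood at 428 CPM (396 to 461) in OX40 agonist cDC1, against 1079 CPM (1028 to 1133) in control cDC1, a ratio of 0.396 (0.362 to 0.433). Cxcl9 UMIs were found in 47.2% of OX40 agonist and 64.3% of control cDC1, beside 11.9% and 20.96% of T cells, which should lack the gene. Thinned to 2000 UMIs a cell, the shares were 27.8% and 41.4% in cDC1 and 5.75% and 8.44% in T cells. Cxcl10, a ligand of the same receptor at chr5:92346638-92348889, stood at 58.7 CPM (47.4 to 71.8) in OX40 agonist cDC1, against 309.8 CPM (283 to 339) in control cDC1, a ratio of 0.189 (0.150 to 0.237). A single cell held 16.0% of Cxcl10 UMIs in OX40 agonist and 25.4% in control cDC1, so few cells carried much of the control level.

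The interferon-induced GTPases of the list were lower as a group. Iigp1 (Irga6), which disrupts the vacuoles of intracellular parasites, lies at chr18:60376027-60392634 and stood at 25.6 CPM (18.4 to 34.7) in OX40 agonist cDC1, against 112 CPM (95.5 to 129.7) in control cDC1, a ratio of 0.229 (0.159 to 0.324). Its UMIs were spread over 15 of 108 OX40 agonist cDC1 and 31 of 70 control cDC1. Igtp (Irgm3), at chr11:58199556-58207591, stood at 20.6 CPM in OX40 agonist cDC1 and 60.4 CPM in control cDC1, a ratio of 0.341 (0.222 to 0.513). Gbp2, a guanylate-binding protein at chr3:142620602-142638008, stood at 80.5 CPM in OX40 agonist cDC1 and 178 CPM in control cDC1, a ratio of 0.453 (0.364 to 0.560). Ifi47, another of the family at chr11:49076587-49096974, stood at 40.0 CPM in OX40 agonist cDC1 and 89.9 CPM in control cDC1, a ratio of 0.444 (0.325 to 0.602). In each case the control interval lay above the OX40 agonist one, which the limits require of any gene called lower. Gbp4, Gbp5 and Irgm1 had ratios of 0.359 (0.193 to 0.640), 0.493 (0.331 to 0.724) and 0.461 (0.321 to 0.655) without passing all limits. Genes of the signalling chain differed less. Irf1 stood at 78.0 against 112 CPM, Ciita at 107 against 108 CPM, and the receptor chain Ifngr1 at 170.4 against 154 CPM with a ratio of 1.10 (0.925 to 1.32).

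Genes outside the list that passed the limits include Ly6a (Sca-1), a surface protein induced by interferons, at chr15:74994877-74998031. It stood at 189 CPM (168 to 212) in OX40 agonist cDC1, against 601 CPM (562 to 641) in control cDC1, a ratio of 0.315 (0.276 to 0.359). Cd38, an enzyme that degrades NAD, at chr5:43868553-43912375, stood at 23.7 CPM in OX40 agonist cDC1 and 63.0 CPM in control cDC1, a ratio of 0.376 (0.251 to 0.553). Asb2, a subunit of a ubiquitin ligase, at chr12:103321142-103356001, stood at 31.2 CPM in OX40 agonist cDC1 and 81.4 CPM in control cDC1, a ratio of 0.383 (0.270 to 0.537). Among DCs Asb2 was largely a cDC1 gene, with 3.13 and 1.74 CPM in cDC2 and 0.280 and 0 CPM in mature DCs of the OX40 agonist and control libraries. Cybb, the oxidase subunit that acts in phagosomes, stood at 31.8 against 93.2 CPM.

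**Figure D3:**
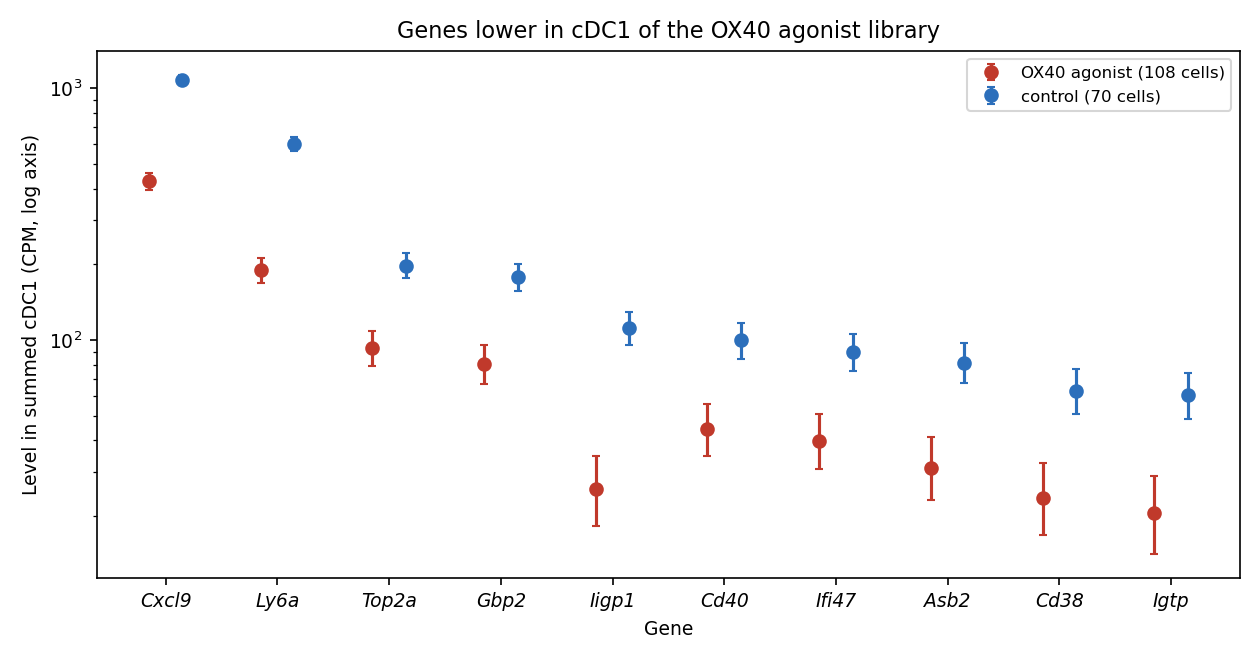
Levels of the 10 lower genes named by rule in cDC1 of the OX40 agonist and control libraries, in CPM on a log axis, with Poisson 95% intervals. The intervals are separate for each of the 10 genes because the limits require it, and Iigp1 shows the lowest ratio at 0.229.

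Promoters of this list are shown because 6 of the 21 lower genes belong to it and because their control by interferon runs through short DNA motifs. TTCNNNGAA is the core of the gamma-activated site. IRF factors bind paired GAAA half-sites, searched here as GAAA, any 2 bases and GAAA, the core of the interferon-stimulated response element. Of the 24 list genes 15 had an entry in the RefSeq promoter table (GRCm38.p6, the build of mm10), searched over 250 bases upstream of the RefSeq start on both strands. The paired GAAA stood in 11 of 15 (73.3%), beside 2.98% of 32851 promoters, and TTCNNNGAA in 7 of 15 (46.7%), beside 7.02%. A list gene counted when any of its promoters matched, while the shares over all promoters are of single promoters. The list was made of interferon response genes, so nothing about these cells is read from the shares. A match is a description of the letters and not evidence of binding. Igtp held both, Cxcl10 and Gbp2 held the paired GAAA, and Cxcl9 held neither within this window. Sequences run 5′ to 3′ on the gene's strand, and capitals mark the matches. The regions are chr11:58199306-58199555 for Igtp and chr3:142620413-142620662 for Gbp2 on the plus strand, and chr5:92348890-92349139 for Cxcl10 and chr5:92328080-92328329 for Cxcl9 on the minus strand. In Gbp2 the match lies on the opposite strand and so reads as paired TTTC. The GENCODE start of Gbp2 given above lies 61 bases upstream of the RefSeq start, so its match is just downstream of the GENCODE start.
Igtp: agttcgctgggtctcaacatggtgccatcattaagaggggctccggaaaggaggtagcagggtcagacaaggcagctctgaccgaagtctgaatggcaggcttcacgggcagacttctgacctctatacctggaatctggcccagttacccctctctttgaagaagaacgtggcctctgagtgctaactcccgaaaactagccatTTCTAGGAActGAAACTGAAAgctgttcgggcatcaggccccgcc
Gbp2: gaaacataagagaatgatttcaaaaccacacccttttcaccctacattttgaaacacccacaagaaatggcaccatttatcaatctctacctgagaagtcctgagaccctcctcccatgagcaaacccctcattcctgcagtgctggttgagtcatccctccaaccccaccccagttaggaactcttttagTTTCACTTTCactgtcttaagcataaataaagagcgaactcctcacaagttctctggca
Cxcl10: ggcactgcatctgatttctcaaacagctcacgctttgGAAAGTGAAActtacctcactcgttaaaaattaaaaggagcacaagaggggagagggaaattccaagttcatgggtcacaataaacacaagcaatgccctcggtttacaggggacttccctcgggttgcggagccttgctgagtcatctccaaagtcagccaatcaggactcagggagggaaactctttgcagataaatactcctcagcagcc
Cxcl9: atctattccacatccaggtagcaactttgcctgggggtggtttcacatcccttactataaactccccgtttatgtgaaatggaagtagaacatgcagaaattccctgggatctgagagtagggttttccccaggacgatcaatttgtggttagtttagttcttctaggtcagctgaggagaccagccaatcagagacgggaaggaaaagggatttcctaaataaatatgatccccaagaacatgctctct

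In the same libraries the list was lower in the other dendritic cells too. Its median log2 ratio was -0.43 in cDC2, with 19 of 19 measured genes lower, and -0.35 in mature DCs, with 17 of 19 lower. Over all genes 57.9% were lower in cDC2 and 58.0% in mature DCs. Cxcl9 stood at 936 and 1017 CPM in cDC2 of the OX40 agonist and control libraries, a ratio of 0.920, and at 124 and 272 CPM in mature DCs, a ratio of 0.454. Ly6a had ratios of 0.567 in cDC2 and 0.610 in mature DCs, and Iigp1 0.370 and 0.584. Whether the ratios differ between the sets was not tested. The 6 list genes called in cDC1 were also lower over all kept barcodes of the OX40 agonist library. OX40 agonist first, Cxcl9 stood there at 236 and 403 CPM, Cxcl10 at 233 and 359 and Iigp1 at 40.4 and 93.4. Igtp stood at 45.8 and 90.5 CPM, Gbp2 at 124 and 219 and Ifi47 at 74.8 and 126. Ly6a stood at 420 and 657 CPM. The lower levels were thus not confined to dendritic cells, and the part of free RNA was not tested. The median of the type I interferon list was -0.56 in cDC1, with 17 of 19 lower and none past the limits, against 0.01 in cDC2 and -0.03 in mature DCs. Only 4 of the 19 had enough counts in cDC1 to be tested, and the medians of the bounds were -1.24 and 0.16. In cDC1 with both Xcr1 and Clec9a the type I median was -0.09, with 6 of 11 lower, beside 57.9% of all genes there. Few cells held many of these UMIs. A single cell gave 86.1% of Ifit3 UMIs in OX40 agonist and 92.2% in control cDC1, and for Rsad2 50% and 87.8%.

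The cDC1 differed among themselves in marker pattern, and interferon list levels differed with it. Both Xcr1 and Clec9a were found in 84 OX40 agonist and 48 control cDC1, Clec9a alone in 20 and 18, and Xcr1 alone in 4 each. The split by pattern was chosen after values were seen, apart from the cells with both. Its cells were shallower, with medians of 9695 UMIs in the OX40 agonist and 14320 in the control library, against 14740 and 23704 in cells with both. Their identity genes summed to 3253 and 3462 CPM, against 7154 and 8593 CPM in cells with both. Macrophage and monocyte markers summed to 1840 and 2291 CPM, against 714 and 873, and cDC2 markers to 707 and 1063 CPM, against 258 and 217. Plasmacytoid DC markers summed to 1348 and 602 CPM, against 125 and 49.5 CPM. A single cell with Clec9a alone held 20.4% of the plasmacytoid marker UMIs of all OX40 agonist cDC1. In the control library a single such cell held 50.6%. The per-cell median of these markers was higher with Clec9a alone than with both in the OX40 agonist library, and lower in the control library. Summed over cells, those with Clec9a alone thus carried fewer cDC1 transcripts and more of other myeloid lineages. For plasmacytoid markers much of the control sum came from a single cell. The part of cells with Clec9a alone in the results was not tested beyond the values that follow.

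Interferon-gamma list UMIs per 10000 had a median of 8.28 (0 to 119) in the 20 OX40 agonist cells with Clec9a alone, against 41.1 (7.98 to 456) in the 18 control cells. In cells with both markers the medians were 6.35 (0 to 77.3) in OX40 agonist and 8.59 (0.308 to 163) in control cDC1. The ranges overlapped in each case, with the highest cells in the control library. Within cells with both markers the list's median log2 ratio was -0.24, with 14 of 17 genes lower, and within those with Clec9a alone it was -1.07, with 20 of 20 lower. Cxcl10 stood at 58.6 against 70.8 CPM in cells with both, a ratio of 0.828 (0.600 to 1.14), and at 74.9 against 1288 CPM in those with Clec9a alone. Gbp2 stood at 46.6 against 50.3 CPM and at 299.6 against 695 CPM in the same order. Cxcl9 stood at 410.2 against 687 CPM in cells with both, a ratio of 0.597 (0.534 to 0.666).

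Some genes kept their difference in the cells with both markers. Ly6a stood at 72.9 against 213 CPM, OX40 agonist first, a ratio of 0.342 (0.267 to 0.434). Iigp1 had a ratio of 0.239 (0.152 to 0.367). Asb2, Cd38 and Top2a had ratios of 0.343 (0.239 to 0.487), 0.342 (0.222 to 0.517) and 0.407 (0.330 to 0.501). These 5 were among the 11 lower genes that passed the limits in those cells, and 7 of the 20 genes called there were called over all cDC1. Of 2602 genes tested in those cells 11 were lower and 9 higher, while over all cDC1 21 were lower and 1 higher. Cells with Clec9a alone held 83.8% of the control UMIs of Cybb, 82.4% of Capg, 80.4% of Ms4a4c and 72.7% of Ly6a. In cells with both markers Cybb and Ms4a4c had ratios of 0.421 (0.185 to 0.900) and 0.409 (0.194 to 0.816), and Capg of 0.984 (0.603 to 1.61), none past the limits.

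**Figure D4:**
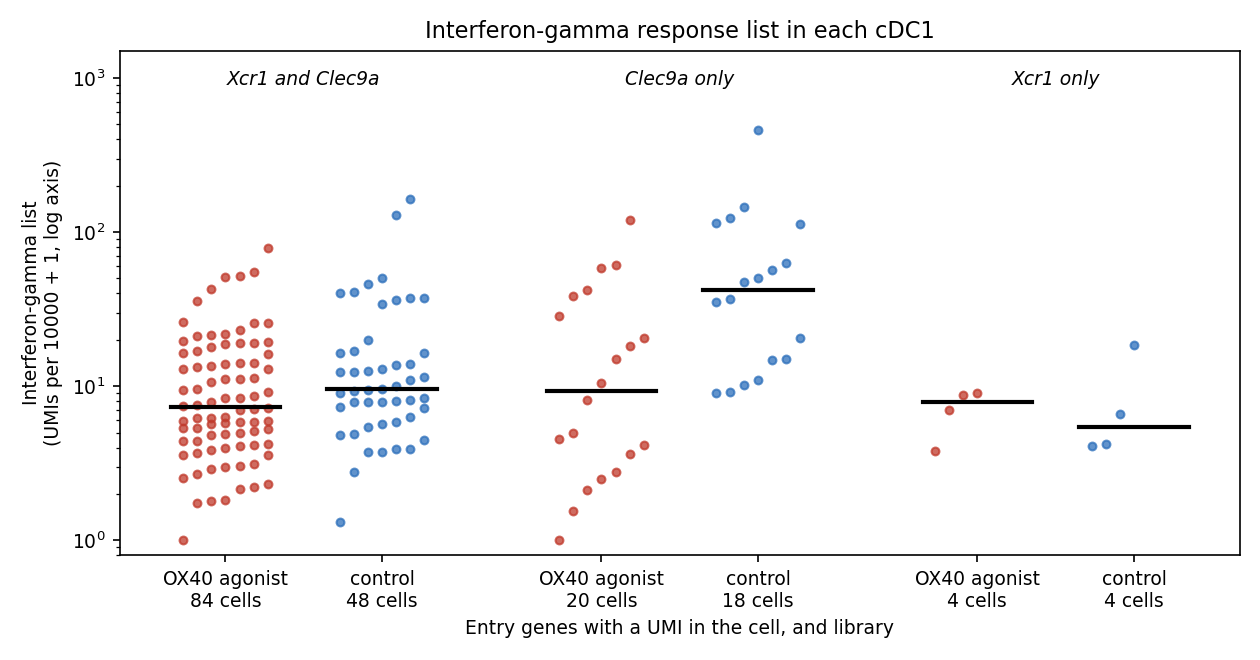
Interferon-gamma list UMIs per 10000 in each cDC1, plus 1 on a log axis, by marker pattern and library, with medians as lines. OX40 agonist cells with Clec9a alone have a median of 8.28 and control cells 41.1, while cells with both markers have medians of 6.35 in the OX40 agonist and 8.59 in the control library.

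Antigen presentation differed little. MHC class II transcripts were among the most abundant of the cell, with Cd74, the invariant chain, at 26834 CPM in OX40 agonist and 27487 CPM in control cDC1. H2-Aa stood at 9148 CPM (9001 to 9298) in OX40 agonist cDC1, against 9350.4 CPM (9197 to 9505) in control cDC1, a ratio of 0.978 (0.956 to 1.00), and H2-Ab1 had a ratio of 0.999 (0.976 to 1.02). The list of 12 measured genes had a median log2 ratio of -0.03 with 9 lower. March1, the ligase that removes class II from the surface, and Ctss, which cuts the invariant chain, had ratios of 0.752 (0.571 to 0.988) and 0.888 (0.814 to 0.969), and H2-Oa, which moderates peptide loading, had 1.24 (1.02 to 1.52). Against mature DCs, class II genes were higher in cDC1, with 11 of 13 at least 2-fold up in both libraries, beside 12.6% of genes compared.

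MHC class I genes were lower in OX40 agonist cDC1 by a small margin. Of 21 measured, 20 were lower, beside 60.0% of all genes, with a median of -0.19 and none past the limits. The heavy chains H2-K1 and H2-D1 had ratios of 0.835 (0.787 to 0.887) and 0.827 (0.784 to 0.872), and B2m, the light chain, 0.877 (0.832 to 0.925). The lowest were nonclassical. H2-Q7 stood at 169 CPM (149.6 to 191) in OX40 agonist cDC1, against 283 CPM (257 to 311) in control cDC1, a ratio of 0.598 (0.512 to 0.698), and H2-Q6 and H2-Q4 had ratios of 0.558 (0.410 to 0.754) and 0.565 (0.368 to 0.857). Q-region genes are near-identical copies, so reads may be split among them and their single values are uncertain. The peptide transporter genes Tap1 and Tap2 had ratios of 0.894 and 0.882.

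Uptake and cross-presentation genes had a median of -0.04 over 18 measured, with 11 lower, beside 60.0% of all genes. Cybb alone passed the limits, beside 0.798%. Havcr2 (TIM-3), a receptor that restrains cDC1, stood at 114 CPM (98.3 to 132) in OX40 agonist cDC1, against 82.7 CPM (68.9 to 98.5) in control cDC1, a ratio of 1.38 (1.09 to 1.75). In cells with both markers the Havcr2 ratio was 1.22 (0.960 to 1.56), an interval that includes equal levels. Axl, a receptor for dying cells, stood at 8.74 against 27.6 CPM, with 14 UMIs in OX40 agonist and 42 in control cDC1. Snap23, a vesicle fusion protein, had a ratio of 0.681 (0.519 to 0.892). Sec61b and Vamp8, of the transport machinery, had ratios of 1.03 and 1.00. Among 12 measured sensors the median was -0.14, and Tlr3 stood at 63.7 CPM in OX40 agonist cDC1 and 70.9 CPM in control cDC1, a ratio of 0.898 (0.678 to 1.19).

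Among 15 measured chemokines and cytokines the median was -0.20 with 8 lower, beside 60.0% of all genes. Of the list, Cxcl10, Cxcl9 and Ccl17 passed the limits as lower, 3 genes beside 0.798%. Outside the list, Cxcl2 and Ccl6 were lower and Ccl7 higher. Cxcl16, a ligand of Cxcr6 on T cells, stood at 278 CPM in OX40 agonist cDC1 and 230.4 CPM in control cDC1, a ratio of 1.21 (1.05 to 1.39). Il12b, the p40 subunit of interleukin 12, stood at 145 CPM (127 to 165) in OX40 agonist cDC1, against 68.3 CPM (55.8 to 82.7) in control cDC1, a ratio of 2.12 (1.68 to 2.70). UMIs were found in 10 of 108 OX40 agonist cDC1 and 4 of 70 control cDC1, or 9.26% and 5.71%, beside 1.30% and 0.960% of T cells, which should lack it, and 40.1% and 40.4% of mature DCs. A single cell gave 45.7% of the OX40 agonist and 69.2% of the control UMIs. In cells with both markers the ratio was 0.788 (0.589 to 1.05). The direction thus differed between the full set and those cells. Il12a, the other subunit, had 0 UMIs in OX40 agonist and 2 in control cDC1. Ccl4 stood at 582 against 369 CPM with 41.0% and 26.7% from single cells. Ccl5 stood at 96.1 against 86.7 CPM with 85.1% and 41.7%, and Ccl17 at 8.74 against 59.1 CPM with 28.6% and 76.7%. Il15, which sustains CD8 T and NK cells, was low with 10 and 16 UMIs.

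Of the costimulation genes, Cd40 passed the limits. Cd40, which receives help from CD4 T cells, lies at chr2:165055627-165072948 and stood at 44.3 CPM (34.6 to 55.9) in OX40 agonist cDC1, against 99.8 CPM (84.5 to 117) in control cDC1, a ratio of 0.444 (0.330 to 0.593). In cells with both markers it stood at 33.8 against 74.2 CPM, a ratio of 0.456 (0.311 to 0.660). Tnfsf9, the ligand of 4-1BB, had 14 UMIs in OX40 agonist and 58 in control cDC1, with 46.6% of the control UMIs in a single cell, and did not pass the limits. Cd86 had a ratio of 0.816 (0.692 to 0.961), Cd80 of 1.23 (0.817 to 1.87) and Cd274, which encodes PD-L1, of 0.764 (0.576 to 1.01). The list of 14 measured genes had a median of -0.04. OX40L itself, Tnfsf4, had no UMI in cDC1 of either library, which at this depth allows up to 3 UMIs, and OX40, Tnfrsf4, had 3 and 6 UMIs. Maturation genes had a median of -0.29 over 14 measured, with 9 lower, beside 60.0% of all genes. Ccl17 and Cd40 passed the limits, beside 0.798%, and 76.7% of the control UMIs of Ccl17 lay in a single cell.

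Receptors for growth factors and cytokines had a median of -0.12, with 13 of 20 lower. Csf2ra and Csf2rb, the chains of the GM-CSF receptor, had ratios of 0.732 (0.610 to 0.877) and 1.03 (0.830 to 1.28). Ptger4, a receptor for prostaglandin E2, stood at 56.8 CPM in OX40 agonist cDC1 and 34.8 CPM in control cDC1, a ratio of 1.63 (1.15 to 2.34). Chemokine receptors had a median of 0.26, with 3 of 8 lower. Cxcr4, the receptor for Cxcl12, had 45 UMIs in OX40 agonist and 8 in control cDC1. That is 28.1 CPM (20.5 to 37.6) in OX40 agonist cDC1, against 5.25 CPM (2.27 to 10.3) in control cDC1, a ratio of 5.35 (2.50 to 13.1), under the minimum of 50 CPM. Its UMIs were spread over 23 of 108 OX40 agonist cDC1 and 7 of 70 control cDC1, and no more than 6 UMIs in OX40 agonist cDC1 and 2 UMIs in control cDC1 came from 1 cell. In cells with both markers Cxcr4 had a ratio of 6.83 (2.41 to 26.6). Ccr2 had a ratio of 1.26 (1.02 to 1.56) and Cxcr3 of 0.744 (0.539 to 1.02). Ccr9, which plasmacytoid DCs share, had 30.4% of its OX40 agonist and 73.7% of its control UMIs in single cells.

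In OX40 agonist cDC1 all 18 mitosis genes were lower, beside 60.0% of all genes, with a median of -0.57. Only 5 of the 18 had enough counts to be tested. The medians of the 18 genes' lower and upper bounds were -1.25 and 0.09, a range that includes no change. Top2a, which untangles DNA for division, lies at chr11:98992943-99024189 and was the only one past the limits. It stood at 93.0 CPM (78.7 to 109) in OX40 agonist cDC1, against 198 CPM (176 to 221) in control cDC1, a ratio of 0.471 (0.384 to 0.575). Its log2 ratio of -1.01 was close to the limit. The call was lost with at most 5% mitochondrial UMIs, with 50 CPM added and after thinning. It was also lost with median-ratio scaling, equal weight per cell, no cycling cells or no C1q limit. The other settings kept it, and the log2 ratio ran from -1.22 to -0.401 over all settings. After thinning, 13 of 108 OX40 agonist and 8 of 70 control cDC1 held Top2a UMIs. Mki67 stood at 61.2 CPM in OX40 agonist cDC1 and 123 CPM in control cDC1, a ratio of 0.496 (0.384 to 0.636). Hmmr, Bub1 and Ube2c had ratios of 0.311 (0.165 to 0.555), 0.376 (0.209 to 0.652) and 0.554 (0.426 to 0.718). Of 18 S phase genes 17 were lower, with a median of -0.22, among them the helicase subunit Mcm3 with a ratio of 0.711 (0.563 to 0.895). Thinned to 2000 UMIs a cell, 36 of 108 OX40 agonist cDC1 (33.3%, 24.6% to 43.1%) and 30 of 70 control cDC1 (42.9%, 31.1% to 55.3%) held at least 2 UMIs of the cycle lists. The ratio of 0.778 had an interval of 0.466 to 1.31, so a difference in the share of such cells was not detectable at this depth. Without thinning the shares were 81.5% and 92.9%.

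Of the 3 DC sets, cDC1 held the most cycle transcripts. The cycle lists summed to 1428 CPM in OX40 agonist and 2022 CPM in control cDC1, against 556 and 487 CPM in cDC2 and 397 and 475 CPM in mature DCs. Thinned shares were 10.7% and 18.5% in cDC2 and 17.5% and 16.7% in mature DCs, OX40 agonist first. Free RNA in droplets can add to such shares, and its part was not tested. Between libraries the mitosis list had a median of 0.84 in cDC2, with 9 of 9 measured genes higher, beside 57.9% of all genes lower there. None of the 9 had enough counts to be tested, the medians of their bounds were -0.84 and 2.23, and the thinned shares above were lower in OX40 agonist cDC2. In mature DCs the median was -0.39 with 6 of 6 lower, again with none testable. In the cDC1 with both markers, which are most of the same cells, the list's median was -0.65, again with 18 of 18 lower.

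Survival genes had a median close to 0 (-0.00) over 13 measured, with single genes on both sides. Bcl2l11 (BIM), which promotes cell death, stood at 44.9 CPM (35.2 to 56.6) in OX40 agonist cDC1, against 19.7 CPM (13.3 to 28.1) in control cDC1, a ratio of 2.28 (1.47 to 3.62). Bcl2a1b and Bcl2a1d, of the protective A1 family, had ratios of 0.609 (0.553 to 0.669) and 0.527 (0.443 to 0.627). These 2 are near-identical copies, so their reads can be split uncertainly. Mcl1 had a ratio of 0.863 (0.783 to 0.950). Glycolysis and oxidative phosphorylation genes had medians of -0.20 with 12 of 15 lower and -0.09 with 12 of 16 lower. Pfkp, a glycolytic kinase, had a ratio of 0.763 (0.695 to 0.837) and the lactate transporter Slc16a3 0.701 (0.522 to 0.937). Immediate early and heat shock genes, which tissue digestion can raise, had a median of 0.06 with 9 of 20 lower, and Btg2, Ier3 and Egr1 had ratios of 1.35 (1.21 to 1.51), 1.49 (1.12 to 2.01) and 1.41 (1.02 to 1.95).

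Markers of other cells were present at low level in cDC1 of both libraries, apart from those of plasmacytoid DCs. The 14 T and NK markers summed to 101 CPM in OX40 agonist and 168 CPM in control cDC1 (0 to 19.9 and 0 to 38.4 UMIs per 10000 in single cells), with Gzma, Ncr1 and Klrb1c at 0 in the OX40 agonist cDC1. Macrophage and monocyte markers summed to 861 and 1138 CPM, with per-cell highs of 77.0 and 183 per 10000. Melanoma markers summed to 45.0 and 38.1 CPM, B cell markers to 0.624 and 5.91 CPM and neutrophil markers to 3.75 and 1.97 CPM. Plasmacytoid DC markers summed to 284 and 160 CPM, above the 105 and 74.2 CPM over all kept barcodes of the same libraries. The part of plasmacytoid DCs among the members was not tested. The macrophage and the T and NK lists were thus higher in control cDC1, as the interferon-gamma list was, and their part in that result was not tested. A doublet score that removed 450 OX40 agonist and 323 control barcodes took 2 and 0 cDC1. With the 4 cells highest in the interferon-gamma list left out of each library, its median was -0.60.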

How the data were processed

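The deposited matrices hold UMI counts per gene and barcode, whole numbers without normalization, which the authors made with Cell Ranger on build mm10, per the submitters' processing notes. The software version is 3.1.0 per the file headers. The labels' protocols name DAPI-negative cells as live while the design text writes the opposite sign, and the protocols were followed. All 31053 genes of the 2 libraries, 1 a group, were used as deposited. From these counts, members' UMIs were summed per library and scaled to CPM, and log2 ratios used CPM plus 10. Poisson, Clopper-Pearson and exact conditional ratio intervals are at 95%. No test between groups is possible with 1 library each.

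Members and gene lists were chosen with earlier results of these data known. Genes of a list were counted at 10 CPM or more in either library, without the genes of the selection rule. Named genes were the 10 lowest that passed the limits, leaving out those with over 25% of UMIs in 1 cell or under 0.5 times the library's own level, up to 4 of each list with the largest ratios, the 12 leading over each other set, and a preset list of cDC1 genes. Other names were chosen after their values were seen. Doublets were scored per library and the highest removed, at 0.8% per 1000 barcodes, only as an alternative, since the automatic threshold marked 0.0133% of OX40 agonist and 0% of control barcodes. Gene positions are from GENCODE M21 (GRCm38) and promoters from RefSeq. Mx2, Ifi30 and Clec7a were not analysed here. The calls were tried on simulated counts in which all cells of a library shared the same profile. That trial cannot check genes whose UMIs sit in few cells. Python 3.11.15, numpy 2.4.6, scipy 1.17.1, pandas 2.3.3, scanpy 1.11.5 and matplotlib 3.10.9 were used. Alternatives were other quality, entry and other-cell limits, doublet removal, thinning, another scaling, equal weight per cell, leaving out cells, and other added CPM and list minimums.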

Additional observations from a re-analysis of the deposited data

Results flagged for a closer look

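The mitosis list had medians of opposite sign in 2 dendritic cell sets of the same libraries. Its median log2 ratio, OX40 agonist over control, was -0.57 in cDC1 with 18 of 18 genes lower and 0.84 in cDC2 with 9 of 9 genes higher. None of the 9 genes had enough counts in cDC2 to be tested, and the medians of their bounds were -0.84 and 2.23. In cDC1 only 5 of the 18 had enough counts, and the medians of the 18 genes' bounds were -1.25 and 0.09. Both ranges include no change. The thinned share of cycling cDC2 was 10.7% in the OX40 agonist and 18.5% in the control library. Each library is a single sample, and the difference between the sets was not tested.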

How the results depend on the processing

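No paired analysis was possible because each group is 1 library, and leaving out a replicate would leave none. With the reported limits 1 gene was higher and 21 were lower in OX40 agonist cDC1. The genes called were not the same in every setting. Of the reported calls, 5 were made again after thinning, 7 with 50 CPM added and 7 where both markers were detected. Under stricter limits on other cells' RNA 9 were, Cxcl2 among them with its direction reversed. The other settings shared between 13 and 22 calls with the reported ones. The number higher was 0 with at most 5% mitochondrial UMIs, with the top cell of each gene left out and with 50 CPM added. It was 2 at an entry limit of 3 and with no C1q limit, 3 with median-ratio scaling, with 1 CPM added and without cells that hold Siglech, and 5 after thinning. It was 6 with equal weight per cell and without cycling cells, 7 under stricter limits on other cells' RNA and 9 where both markers were detected. The number lower was 11 where both markers were detected, 49 without cycling cells, 7 with 50 CPM added and 44 without the C1q limit. The ratio of shares was 1.95 under the stricter limits. The MHC class II median turned to 0.040 with median-ratio scaling and 0.087 without the C1q limit. Single genes reversed in 5 cases: Ccl6 to 0.75 and Cxcl2 to 2.13 under the stricter limits, Cxcl2 to 0.35 with the top cell left out, Ms4a4c to 0.23 after thinning and Ccl7 to -0.79 without the C1q limit. In each case the cause was not tested. A gene value counted as close when it lay within its reported interval. A list median did when it lay between the medians of its genes' lower and upper bounds, a wide range. For the interferon-gamma list these were -1.37 and -0.13, so a median of -0.24 counted as having stayed. By this rule, of 2329 gene values 2107 stayed close to the reported one and 217 moved, and of 455 list medians 450 stayed and 5 moved. The interferon-gamma median ran from -0.24 to -1.15 and the mitosis median from -0.27 to -0.76. The removal of the C1q limit, of cells with Siglech and of the 4 highest interferon-gamma cells, and thinning before entry, were chosen after seeing the data. Depth limits genes under 50 CPM and any share read from few cells.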

Other observations

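A group of genes that passed the limits as lower owed much of its control level to single cells. Lpl, the lipoprotein lipase, stood at 11.9 against 116 CPM in OX40 agonist and control cDC1, and a single cell gave 57.9% and 49.7% of the UMIs. Cxcl2, a chemokine for neutrophils, stood at 203 against 500.2 CPM with 21.2% and 75.3% in a single cell. Ptgs2, the inducible cyclooxygenase, stood at 3.12 against 55.8 CPM and Ccl6 at 59.9 against 226 CPM, with 50.6% and 54.4% of their control UMIs in a single cell. Ccrl2, a receptor that binds chemerin, was more even at 28.1 against 68.3 CPM, with 22.2% and 16.3% in a single cell. The part of other cells' RNA in these levels was not tested.

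Of the cDC1, 54 of 108 in the OX40 agonist and 28 of 70 in the control library held no UMI of the plasmacytoid DC markers. Siglech, a marker of that lineage, had UMIs in 6 OX40 agonist and 2 control cDC1, with up to 18 and 19 UMIs in a cell. Siglech stood at 34.96 against 13.1 CPM, and Ly6d, which marks plasmacytoid DCs and their precursors, at 83.0 against 28.9 CPM. A single cell gave 36.8% of Ly6d UMIs in OX40 agonist and 86.4% in control cDC1. Plasmacytoid markers reached 144 UMIs per 10000 in a cell of the OX40 agonist library and 113 in a cell of the control library, both with Clec9a alone.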
